A study of Mus musculus with 10 samples.

Results

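Glycolysis and the pentose phosphate pathway were examined as a set of 34 genes in RNA-seq of stimulated mouse macrophages. The genes were chosen by name for their textbook roles, from glucose uptake through the glycolytic steps in order to lactate export, with the pentose phosphate enzymes and the transcription factor gene Hif1a added. All 34 were found among the 56980 genes of the count table, and all 34 passed the filter on low counts, which kept 14436 genes. The macrophages came from mice with the gene for junctional adhesion molecule-like protein, Jaml, intact (WT, 5 libraries) or deleted in macrophages (KO, 5 libraries). All 10 libraries, WT included, came from cells exposed for 8 h to 100 ng/ml of lipopolysaccharide (LPS, a cell wall component of bacteria that TLR4 senses), with 5 mM ATP for the 30 min that followed. Untreated cells were not analysed here, so no value below is a response to LPS or ATP. The labels name no Cre driver, no strain or age, and no tissue of origin. For the KO group the titles speak of a macrophage knockout and the genotype tag of a knockdown.

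Glycolysis splits glucose into pyruvate in the cytosol. Hexokinases trap glucose as glucose-6-phosphate, phosphofructokinase commits it to the pathway, and the later triose steps give ATP, NADH and pyruvate, which lactate dehydrogenase turns into lactate for export. The pentose phosphate pathway branches off at glucose-6-phosphate and supplies NADPH and ribose. Macrophages stimulated with LPS are known for a shift towards glycolysis and lactate, in which the hypoxia-inducible factor HIF-1, made of HIF-1α and its partner ARNT, drives many of these genes.

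The libraries held 19319512 to 22766319 counts, at which 3 counts equal 0.132 to 0.155 CPM (counts scaled to a library of 1000000). The 5 KO columns are headed SI in the table. No label spells that out, and they were assigned to the KO group by elimination, an assignment on which each direction given here depends. Jaml itself could not check the labels, since 8 libraries had 0 counts of it and WT 1 and KO 4 had 2 each, under the floor of 3 counts. The labels do not say whether the libraries of 1 group come from different animals or cultures. Their spread, on which all p-values rest, may therefore be technical. The summed level of 10 macrophage markers was 24200 to 25700 CPM in WT and 23500 to 25600 CPM in KO. Among other cells, 11 mesothelial and fibroblast markers summed to 603 to 671 CPM in WT and 624 to 793 CPM in KO. Collagen genes carried most of that sum. Col1a1, Col1a2 and Dcn were called higher, while Pdgfra (log2 difference -1.01) and the low mesothelial markers Upk3b (1.41 and 0.212 CPM) and Lrrn4 (0.977 and 0.17 CPM) were called lower, and the other 5 were not called. The 8 neutrophil markers summed to 15.1 to 19.2 CPM in WT and 23.1 to 27.3 CPM in KO, nearly all of it S100a8 (14.6 and 21.5 CPM) and Camp (2.25 and 3.27 CPM), both called higher, while the others, Ly6g and Mpo among them, had means of at most 0.296 CPM and were not tested. The 8 mast cell markers summed to 8.35 to 14.1 and 5.09 to 5.81 CPM, with Cpa3, Cma1 and Tpsb2 called lower. Markers of T and NK cells, B cells, dendritic cells and erythroid cells summed to at most 2.86 CPM in any library, and the defining markers Cd3e, Ncr1, Xcr1, Cd209a and Siglech were at 0. The part of these cells in the results was not tested, and in bulk RNA fewer cells of a type cannot be told apart from less RNA per cell. KO 1 and KO 3 stood apart from the other KO libraries on the second principal component, at 14.6 and 24.0 against -9.0 to -12.9, and calls that were lost without them are given with that fit.

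The pathway genes did not move as a block. In KO, 11 of 34 were higher and 8 lower than in WT at an adjusted p under 0.05, and 15 were not called (edgeR's quasi-likelihood test, adjusted over all 14436 genes). Over all genes 29.1% were called, 14.1% higher and 15.0% lower, against 55.9% of these 34. The set is more abundant than most genes, and among the 8825 genes with a mean of at least 10 CPM 36.7% were called, against 57.6% of the 33 pathway genes at that level. That cut does not match the pathway genes to the others in abundance. The set was also chosen with earlier results of these data known, so the gap is a description only. The median log2 difference was 0.05 over the 34 genes and 0.01 over all genes tested. The changes were mostly small: called pathway genes moved by a median of 0.31 on the log2 scale, called genes of the whole table by 0.35, and 2 pathway genes (Hk3 and Pfkfb3) were called with a change of 1.5-fold or more, which 7.34% of all genes were. WT and KO values did not overlap for 14 of the 34 (41.2%, against 23.3% of all genes), 9 of them above WT and 5 below.

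**Figure D1:**
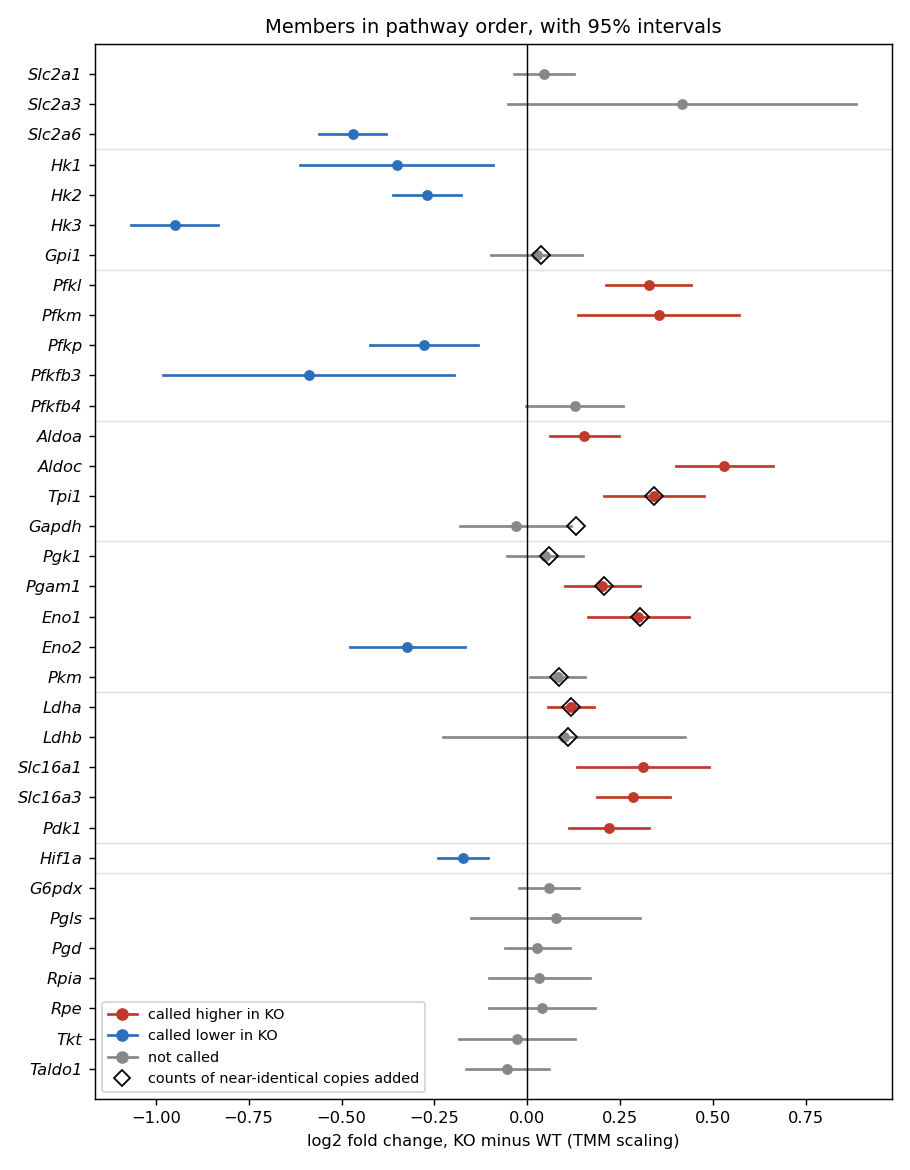
The log2 fold change of each of the 34 genes, KO minus WT, with its 95% interval, from glucose uptake at the top to the pentose phosphate enzymes at the bottom. Red marks the 11 genes called higher, blue the 8 called lower and grey the 15 not called, and open diamonds give the value with the counts of near-identical gene copies added. The blue values lie mainly in the upper part of the pathway, down to -0.95 for Hk3, and the red ones in its middle.

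Per length of the longest coding transcript, and on the gene's own row, Aldoa had the highest WT level of the 34 at 887 ± 44.0 CPM per kilobase, followed by Pkm at 773 ± 23.8, Ldha at 505 ± 10.98, Pgd at 376 ± 13.7 and Pgam1 at 318 ± 22.6, and Slc2a3 had the lowest at 0.36 ± 0.10. That order holds for own rows only. With near-identical copies added, WT means in CPM, not divided by length, were 1806 for Gapdh and 1073 for Eno1. On their own rows Aldoa had 1374 and Ldha 916 CPM in WT. The calls differed along the pathway. Of the 7 genes of glucose uptake, phosphorylation and isomerisation, 4 fell (Slc2a6, Hk1, Hk2 and Hk3) and the other 3 did not pass. Of the 5 genes of the phosphofructokinase step, 2 rose and 2 fell. Of the 4 triose genes 3 rose, of the 5 payoff genes 2 rose and 1 fell, and of the 5 genes for the fate of lactate and pyruvate 4 rose. The 7 pentose phosphate genes gave no call.

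**Figure D2:**
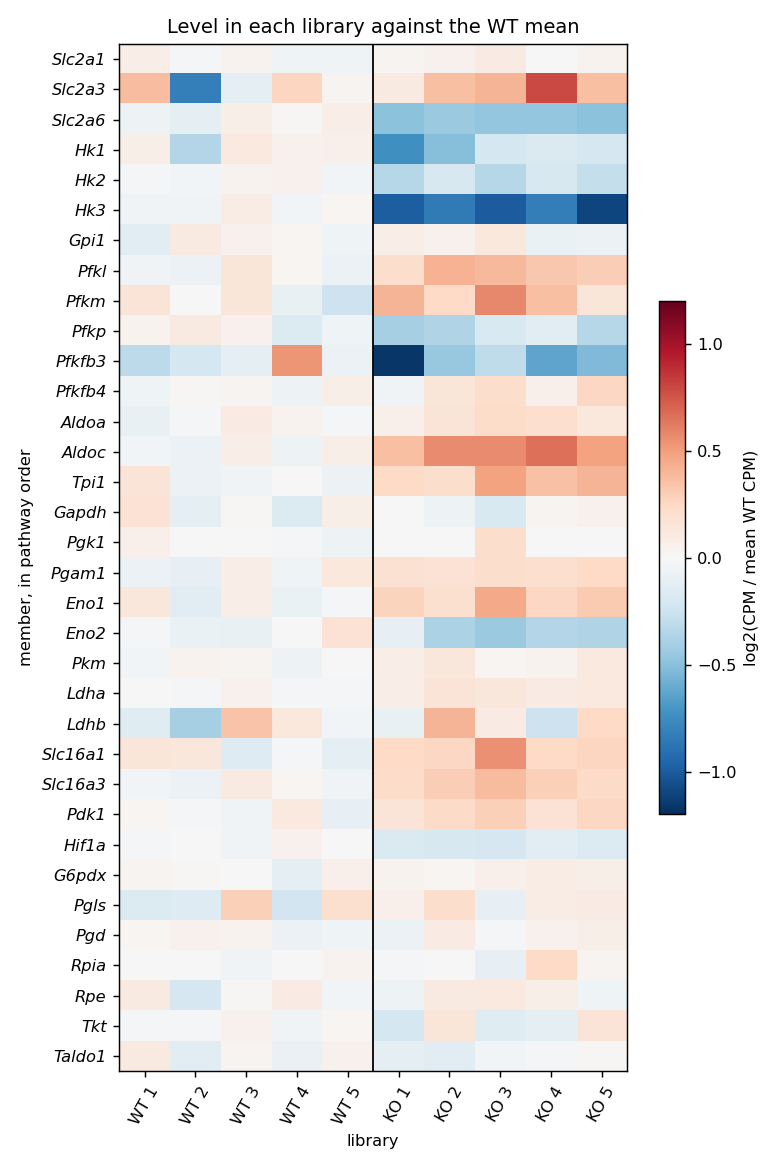
Each cell gives the level of a gene in a library as log2 of its CPM over the WT mean, with the 5 WT libraries left of the line and the 5 KO libraries right of it. Hk3 is low in every KO library and Aldoc high in every KO library, while Tkt ranges from 414 to 537 CPM within KO.

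Gapdh and Eno1 cannot be read from their own row of the table alone: both have near-identical copies elsewhere in the genome, and most of the counts sit on these. Gapdh encodes glyceraldehyde-3-phosphate dehydrogenase. Its own row held 13502 counts over the 10 libraries, while 70 processed pseudogenes matching its transcript at 95% or more over at least 300 bases held 376849, that is 2791% of the gene's own. The copies with the most counts, Gm12070 and Gm5559, differ from the Gapdh transcript by 1 base in about 1000 aligned bases. Gm10359 and Gm12671, which held 81 and 79 counts, are identical to it over 1002 bases. A short read from most stretches therefore fits both Gapdh and a copy. The sequences below show 60 bases around that base for the copies with the most counts, Gm12070 (chromosome 11) and Gm5559 (chromosome 5), each under the matching stretch of Gapdh. The capital is the differing base, G361A in Gm12070 and T385A in Gm5559, with Gapdh's base given before the position, which is counted from the first base of the copy.
Gapdh, for Gm12070: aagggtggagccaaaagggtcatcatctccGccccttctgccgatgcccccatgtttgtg
Gm12070: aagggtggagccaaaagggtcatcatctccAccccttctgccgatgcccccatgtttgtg
Gapdh, for Gm5559: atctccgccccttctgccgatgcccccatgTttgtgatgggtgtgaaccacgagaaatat
Gm5559: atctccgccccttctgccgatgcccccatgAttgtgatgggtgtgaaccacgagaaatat

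On its own row Gapdh had 66.4 ± 6.33 CPM (WT) and 65.0 ± 4.04 CPM (KO; mean ± SD with n = 5 per group, also for the later CPM values), a log2 difference of -0.03 ± 0.07 (estimate ± SE) with an adjusted p of 0.781. Iffo1, which overlaps Gapdh, held counts equal to 23.6% of that row's and was not called (adjusted p = 0.701). The copies together stood at 1740 ± 44.2 CPM in WT and 1913 ± 72.7 CPM in KO. With the copies added, Gapdh was at 1823, 1801, 1826, 1726 and 1855 CPM in WT and at 1898, 2041, 2023, 1903 and 2023 CPM in KO. Every KO value then lay above every WT value, and the difference of 0.13 ± 0.03 was called (adjusted p = 0.0115), a fit chosen after seeing the data. Gm12070 alone was called higher (750 ± 19.1 against 828 ± 40.1 CPM, adjusted p = 0.0143), as were Gm5559 (adjusted p = 0.0179) and Gm2451 (adjusted p = 0.0404), while Gm13394 was not (adjusted p = 0.285). Whether these reads came from Gapdh or from its copies was not tested.

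For Eno1, the enolase gene expressed in most tissues, 3 copies held 217% of the gene's own counts. Its own row rose from 339 ± 26.3 to 417 ± 29.8 CPM (0.30 ± 0.06, adjusted p = 0.00328), and the sum with the copies rose from 1073 ± 53.5 to 1323 ± 87.8 CPM (0.30 ± 0.05, adjusted p = 7.4e-04). The own row, the copies and the sum therefore gave the same direction, with groups that did not overlap in any of the 3. Copies of Pgk1, which encodes phosphoglycerate kinase, held 85.4% of its counts, most of them on Pgk1-rs7, which is identical over 1255 bases. Neither the own row (311 ± 8.68 and 321 ± 22.2 CPM, adjusted p = 0.504) nor the sum (adjusted p = 0.349) passed. The copy of Pgam1 held 28.6% of that gene's counts, those of Ldhb, Pkm and Gpi1 9.68%, 9.23% and 7.83%, that of Tpi1 2.4% and those of Ldha 0.49%. The other 25 genes had no such copy, and with the copies added all 19 calls were kept and Gapdh joined them.

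**Figure D3:**
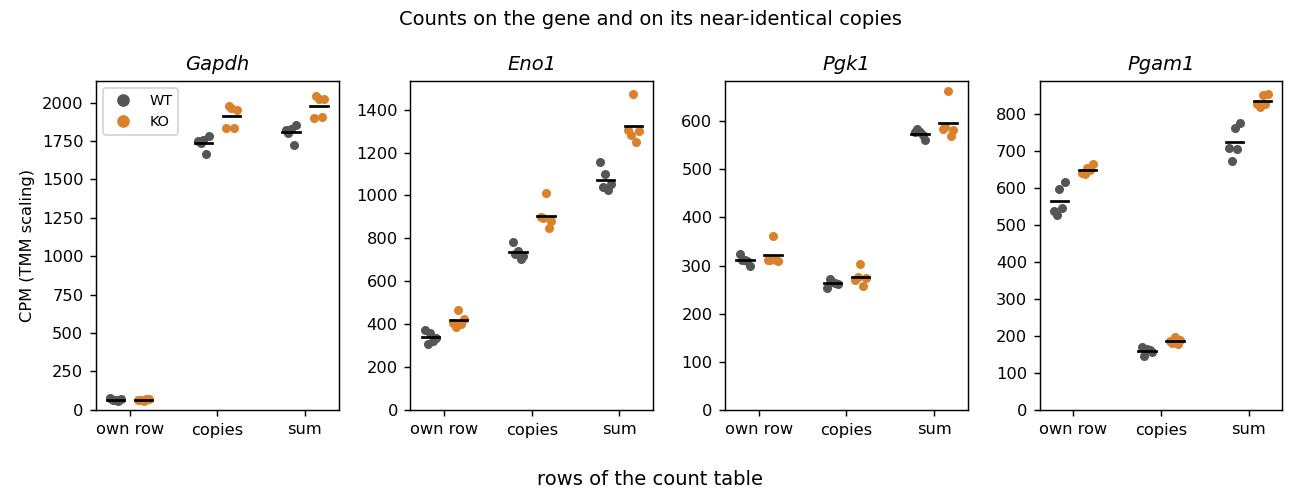
CPM of Gapdh, Eno1, Pgk1 and Pgam1 in each library on the gene's own row, on its near-identical copies and as their sum, with WT in grey, KO in orange and a bar at each mean. For Gapdh nearly all counts are on the copies, and the KO points lie above the WT points there and in the sum but not on the own row.

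Glucose enters cells through transporters of the SLC2A family. Whether each gene of that family named here serves uptake in these cells was not tested. Slc2a6, a transporter gene known to be raised by LPS in macrophages, fell in KO. It stood at 259.6, 253, 284, 274 and 288 CPM in the WT libraries and at 193, 199.8, 198, 197 and 194 CPM in the KO libraries. The groups were far apart beside their spread, with a 1.38-fold lower mean in KO (log2 difference -0.47 ± 0.04, adjusted p = 5.4e-06). Slc2a1, the gene of the ubiquitous transporter GLUT1, had 168 ± 6.75 CPM in WT and 173 ± 4.63 CPM in KO and did not pass (adjusted p = 0.416). Slc2a3, which encodes the high-affinity transporter GLUT3, was low at 15 to 50 counts per library, with 1.42 ± 0.40 and 1.90 ± 0.34 CPM (adjusted p = 0.177), and the gene Gm4482, which overlaps it, held 117% of its counts.

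Phosphorylation of glucose held the largest change of the pathway. Hk3, a hexokinase gene characteristic of myeloid cells, stood at 780.4, 782, 853, 788 and 816 CPM in WT and at 404, 447, 403, 452 and 376 CPM in KO. The groups were wide apart, with the highest KO library far under the lowest WT library. Its mean was 1.93-fold lower in KO, a log2 difference of -0.95 ± 0.05 (adjusted p = 3.1e-07). Hk2, the inducible hexokinase gene, fell too, from 403, 401, 423, 426 and 400.5 CPM to 324, 359, 323, 359.8 and 336 CPM (-0.27 ± 0.04, adjusted p = 4.4e-04). Its groups did not overlap, with 400.5 CPM as the lowest WT value and 359.8 CPM as the highest KO value. Hk1, the housekeeping hexokinase gene, was at 176, 131, 182, 174 and 175 CPM in WT and at 101, 117, 145, 149 and 145 CPM in KO. WT 2 lay within the KO range, and the call at -0.35 ± 0.12 (adjusted p = 0.0443) was lost without WT 1, WT 3, WT 4, WT 5, KO 1 or KO 2, with adjusted p up to 0.109, and without KO 1 and KO 3 (0.0908). Gpi1, whose product turns glucose-6-phosphate into fructose-6-phosphate, had 331 ± 21.6 and 337 ± 21.7 CPM and did not pass (adjusted p = 0.784).

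At the phosphofructokinase step the isozymes went in opposite directions. Pfkl, the liver-type phosphofructokinase gene, rose from 379, 372, 431, 396 and 372 CPM to 450.2, 520.0, 509.9, 488 and 477 CPM (0.33 ± 0.05, adjusted p = 5.6e-04). The highest WT value, 431 CPM, lay under the lowest KO value. Pfkp, the platelet-type gene, fell from 96.5 ± 6.93 to 79.6 ± 6.62 CPM (-0.28 ± 0.07, adjusted p = 0.00764), with WT 4 at 86.2 CPM under KO 4 at 88.2 CPM. Pfkm, the muscle-type gene, was the least abundant of the 3 per transcript length and rose from 10.5 ± 1.22 to 13.5 ± 1.54 CPM (0.35 ± 0.10, adjusted p = 0.0182), a call lost without KO 1 and KO 3 (0.102). Genes that overlap these loci held 270% (Senp1, for Pfkm) and 75.3% (Pitrm1, for Pfkp) of their counts. Senp1 was not called (-0.05 ± 0.09, adjusted p = 0.714), and Pitrm1 was higher (0.13 ± 0.04, adjusted p = 0.0354), opposite to Pfkp. Pfkfb3 and Pfkfb4 encode the bifunctional enzymes that set the level of a sugar bisphosphate that activates phosphofructokinase. Pfkfb3 stood at 86.5, 92.7, 99.8, 155 and 102 CPM in WT and at 47.9, 78.5, 87.0, 69.1 and 74.4 CPM in KO. WT 4 was far above the other libraries, and KO 3 reached into the WT range. The call at -0.59 ± 0.18 (adjusted p = 0.0276) was lost without WT 4 (-0.41, adjusted p = 0.0616), without WT 5 (0.05001) and without KO 4 (0.0552). Pfkfb4 had 24.5 ± 0.93 and 26.8 ± 2.15 CPM (adjusted p = 0.139, and 0.0367 without KO 1).

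Of the 4 triose genes 3 rose, and Gapdh did not pass on its own row. Aldoc, an aldolase gene known mainly from brain, rose from 30.6, 29.9, 33.3, 30.2 and 33.0 CPM to 40.4, 46.5, 46.5, 49.6 and 43.9 CPM, which left a gap between the groups. The 1.44-fold rise (0.53 ± 0.06, adjusted p = 4.1e-05) was the largest increase among the 34 genes. Aldoa, the main aldolase gene, rose from 1374 ± 68.2 to 1528 ± 66.2 CPM (0.15 ± 0.04, adjusted p = 0.0180), with WT 3 at 1468 CPM above KO 1 at 1434 CPM. A second identifier named Aldoa held 1 to 6 counts per library and was not tested. Tpi1, the gene of triosephosphate isomerase, rose from 377, 322, 328, 338 and 322 CPM to 397, 391, 471, 429 and 448 CPM (0.34 ± 0.06, adjusted p = 0.00132). WT 1 stood above the other WT libraries and still under every KO library.

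Of the payoff steps, Pgam1, the phosphoglycerate mutase gene, rose from 564 ± 40.1 to 648 ± 10.8 CPM (0.20 ± 0.05, adjusted p = 0.00601), and by 0.21 with its copy added (adjusted p = 0.00253). Its identical copy Pgam1-ps2 was called by itself, at 160 ± 9.45 and 186 ± 7.65 CPM (adjusted p = 0.00385). Eno2, known as the neuronal enolase gene, fell while Eno1 rose. It was at 85.4, 82.4, 81.8, 86.9 and 97.8 CPM in WT and at 81.2, 66.7, 63.7, 68.0 and 67.7 CPM in KO (-0.32 ± 0.07, adjusted p = 0.00476). KO 1 came close to the WT range without entering it. Pkm, whose product makes pyruvate and ATP, stood at 1881 ± 57.9 and 1991 ± 66.8 CPM and missed the threshold (0.08 ± 0.03, adjusted p = 0.0947). It passed without WT 2 (0.0432) or WT 3 (0.0432).

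Of the 5 genes for the fate of lactate and pyruvate, all but Ldhb rose. Slc16a3 encodes MCT4, the main lactate exporter of glycolytic cells, and stood at 173, 168, 191, 179.8 and 172 CPM in WT and at 206, 217, 230.3, 216 and 207 CPM in KO. All KO libraries lay above all WT libraries (0.29 ± 0.05, adjusted p = 5.4e-04). Csnk1d, which overlaps it and held 55.9% of its counts, was lower (-0.15 ± 0.04, adjusted p = 0.0222). Slc16a1, the gene of the transporter MCT1, rose from 33.8 ± 3.28 to 42.0 ± 4.23 CPM (0.31 ± 0.08, adjusted p = 0.0124), with KO 3 at 49.5 CPM and the other KO libraries at 39.9 to 40.5 CPM. Ldha, the gene of the lactate dehydrogenase subunit that favours lactate, rose by a small and regular amount. It was at 915, 902, 951, 905 and 909 CPM in WT and at 967, 1017, 1007, 984 and 995 CPM in KO (0.12 ± 0.03, adjusted p = 0.00850). Pdk1, whose kinase holds back the entry of pyruvate into mitochondria, rose from 34.6 ± 1.98 to 40.3 ± 1.51 CPM (0.22 ± 0.05, adjusted p = 0.00505), again without overlap. Ldhb, the gene of the subunit that favours pyruvate, had 12.1 ± 2.31 and 12.9 ± 2.31 CPM (adjusted p = 0.672).

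The pentose phosphate genes moved little. None of the 7 was called, and none had an unadjusted p under 0.05; DESeq2 and limma-voom also called 0. In the oxidative branch, which makes NADPH, G6pdx had 310 ± 14.2 and 323 ± 5.82 CPM (0.06 ± 0.04, adjusted p = 0.282), Pgls 35.6 ± 5.95 and 37.5 ± 2.84 CPM (adjusted p = 0.639) and Pgd 833 ± 30.4 and 849 ± 40.5 CPM (adjusted p = 0.668). In the branch that exchanges sugar carbons, Rpia had 19.1 ± 0.40 and 19.6 ± 1.76 CPM (adjusted p = 0.747), Rpe 31.3 ± 2.59 and 32.2 ± 1.89 CPM (adjusted p = 0.707) and Taldo1 303 ± 20.6 and 292 ± 13.3 CPM (adjusted p = 0.485). Overlapping genes held counts equal to 29.0% (Ikbkg, for G6pdx) and 18.4% (Kansl1l, for Rpe) of these genes' own. Ikbkg and Kansl1l were not called (adjusted p = 0.288 and 0.309). Tkt, the transketolase gene, had 481 ± 11.7 CPM in WT and a wider spread in KO, where KO 2 and KO 5 at 532 and 537 CPM stood above WT and KO 1, KO 3 and KO 4 at 414 to 443 CPM below it (adjusted p = 0.820). With TMM scaling, the 95% intervals of the log2 differences were -0.02 to 0.14 for G6pdx, -0.06 to 0.12 for Pgd, -0.19 to 0.13 for Tkt and -0.15 to 0.30 for Pgls. These intervals do not cover the choice of scaling. When libraries were scaled by their totals alone, G6pdx (0.17, adjusted p = 0.00265) and Pgd (0.14, adjusted p = 0.00622) were called higher. Both values lie above the intervals given for these genes.

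Hif1a, which encodes HIF-1α, fell from 274, 276, 269.9, 288 and 278 CPM to 245, 243, 241, 253 and 248 CPM. The groups did not overlap, and the difference was -0.17 ± 0.03 (adjusted p = 0.00114). It depended on the scaling: with library totals it was -0.06 ± 0.03 and not called (adjusted p = 0.163). HIF-1α is set largely by protein stability, which RNA does not show.

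The promoters of these genes were searched for the core of the hypoxia element that HIF-1 binds, ACGTG or GCGTG on either strand. RefSeq windows (GRCm38.p6) from 250 bases before to 50 after the start were matched by symbol for 33 of the 34 genes, Slc2a3 being the one without. The core stood in 29 of the 33 (87.9%), against 46.7% of the 27025 genes with such a window. A gene counted if any of its windows held the core. By window the shares were 78.7% of 47 and 43.8% of 32851. Both cores contain the letters CG, and the background was not matched for base composition or for expression, so the gap cannot be read as an enrichment of HIF-1 sites. By call, it stood in 10 of 11 genes called higher, 7 of 8 called lower and 12 of 14 not called. The MYC-type E-box CACGTG, which overlaps the core and then counts as 2 matches of it, stood in 15.2% of the 33 genes and in 8.09% of all (Pfkm, Ldha and Slc16a1, called higher, and Pfkfb3 and Hif1a, called lower). The interferon-stimulated element core, GAAA, any 2 bases and GAAA again, stood in 3.03% (Rpe) and in 3.99% of all. A match is a description of the letters and not a binding site. Shown here are 2 genes that rose, Slc16a3 (chr11:120948817-120949116, plus strand, 2 matches) and Ldha (chr7:46845554-46845853, plus strand, 7 matches), and 2 that fell, Hk3 (chr13:55021336-55021635, minus strand, 1 match) and Slc2a6 (chr2:27027949-27028248, minus strand, 4 matches), with the core or its reverse complement in capitals.
Slc16a3: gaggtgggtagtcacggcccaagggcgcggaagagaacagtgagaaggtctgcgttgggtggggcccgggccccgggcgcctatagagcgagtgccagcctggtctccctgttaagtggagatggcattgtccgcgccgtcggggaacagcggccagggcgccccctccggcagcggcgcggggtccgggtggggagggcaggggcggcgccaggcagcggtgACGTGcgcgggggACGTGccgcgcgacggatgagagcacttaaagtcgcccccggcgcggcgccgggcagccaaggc
Ldha: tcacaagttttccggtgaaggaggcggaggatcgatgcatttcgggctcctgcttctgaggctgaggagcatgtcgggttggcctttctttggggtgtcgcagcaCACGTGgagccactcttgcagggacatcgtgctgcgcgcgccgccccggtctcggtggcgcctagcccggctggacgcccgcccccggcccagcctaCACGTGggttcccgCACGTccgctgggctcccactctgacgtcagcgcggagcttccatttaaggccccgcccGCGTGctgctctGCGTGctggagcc
Hk3: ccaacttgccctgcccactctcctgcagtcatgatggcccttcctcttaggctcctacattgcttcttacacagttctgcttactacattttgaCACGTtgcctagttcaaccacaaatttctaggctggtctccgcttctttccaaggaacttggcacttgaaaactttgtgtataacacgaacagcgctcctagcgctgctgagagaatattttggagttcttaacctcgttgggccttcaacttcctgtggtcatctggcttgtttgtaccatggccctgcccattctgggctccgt
Slc2a6: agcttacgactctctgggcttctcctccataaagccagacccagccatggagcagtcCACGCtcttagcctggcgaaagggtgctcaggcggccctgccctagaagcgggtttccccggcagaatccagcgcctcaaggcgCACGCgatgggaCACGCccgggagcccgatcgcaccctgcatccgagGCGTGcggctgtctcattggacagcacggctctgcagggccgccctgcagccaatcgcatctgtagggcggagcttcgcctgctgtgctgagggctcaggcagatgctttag
Both matches in Slc16a3 lie close to the start of transcription, that in Hk3 well before it, and those in Ldha and Slc2a6 are spread over the window.

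Within enzyme families the mix of isozymes differed between the genotypes. Shares were taken from counts divided by the longest coding transcript of each gene in GENCODE M21, and they are descriptions with no test. Hk3 gave 68.7 ± 1.03% of hexokinase RNA in WT and 58.3 ± 2.10% in KO, Hk2 20.5 ± 0.64% and 27.9 ± 0.80%, and Hk1 10.8 ± 1.08% and 13.8 ± 2.15%. Hk2 therefore had a larger share in KO although its own level was lower, and the order of the 3 was the same in both groups. Hexokinase RNA as a whole was 1.64-fold lower in KO, at 363 ± 13.9 and 222 ± 13.8 CPM per kilobase, without overlap.

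Among the 3 glucose transporter genes Slc2a6 held 71.0 ± 1.56% in WT and 63.1 ± 0.60% in KO and Slc2a1 28.8 ± 1.55% and 36.6 ± 0.64%, and the family total was 179 ± 6.99 and 145 ± 2.15 CPM per kilobase, again without overlap. Pfkl held 79.5 ± 1.52% and 84.6 ± 1.04% of phosphofructokinase RNA and Pfkp 17.7 ± 1.41% and 12.4 ± 0.85%. The phosphofructokinase total overlapped between groups at 132 ± 7.04 and 155 ± 8.19 CPM per kilobase. The overlap was narrow, with the highest WT value at 143.6 and the lowest KO value at 143.2, and it depended on the scaling. With library totals the means were 126 in WT and 161 in KO, without overlap. Pfkfb3 held 75.4 ± 4.14% and 65.5 ± 3.75% against Pfkfb4. Aldoc was 1.26 ± 0.07% and 1.62 ± 0.07% of aldolase RNA, so Aldoa carried nearly all of it in both groups. Eno1 was 84.3 ± 1.45% and 89.2 ± 1.30% of enolase RNA on own rows, and 94.4 ± 0.52% and 96.3 ± 0.46% with its copies added. Shares of Ldha with Ldhb and of Slc16a1 with Slc16a3 overlapped between the groups, while both totals were higher in KO without overlap, at 514 ± 12.4 and 558 ± 12.2 CPM per kilobase for lactate dehydrogenase and 48.4 ± 1.66 and 59.1 ± 3.10 for the transporters.

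**Figure D4:**
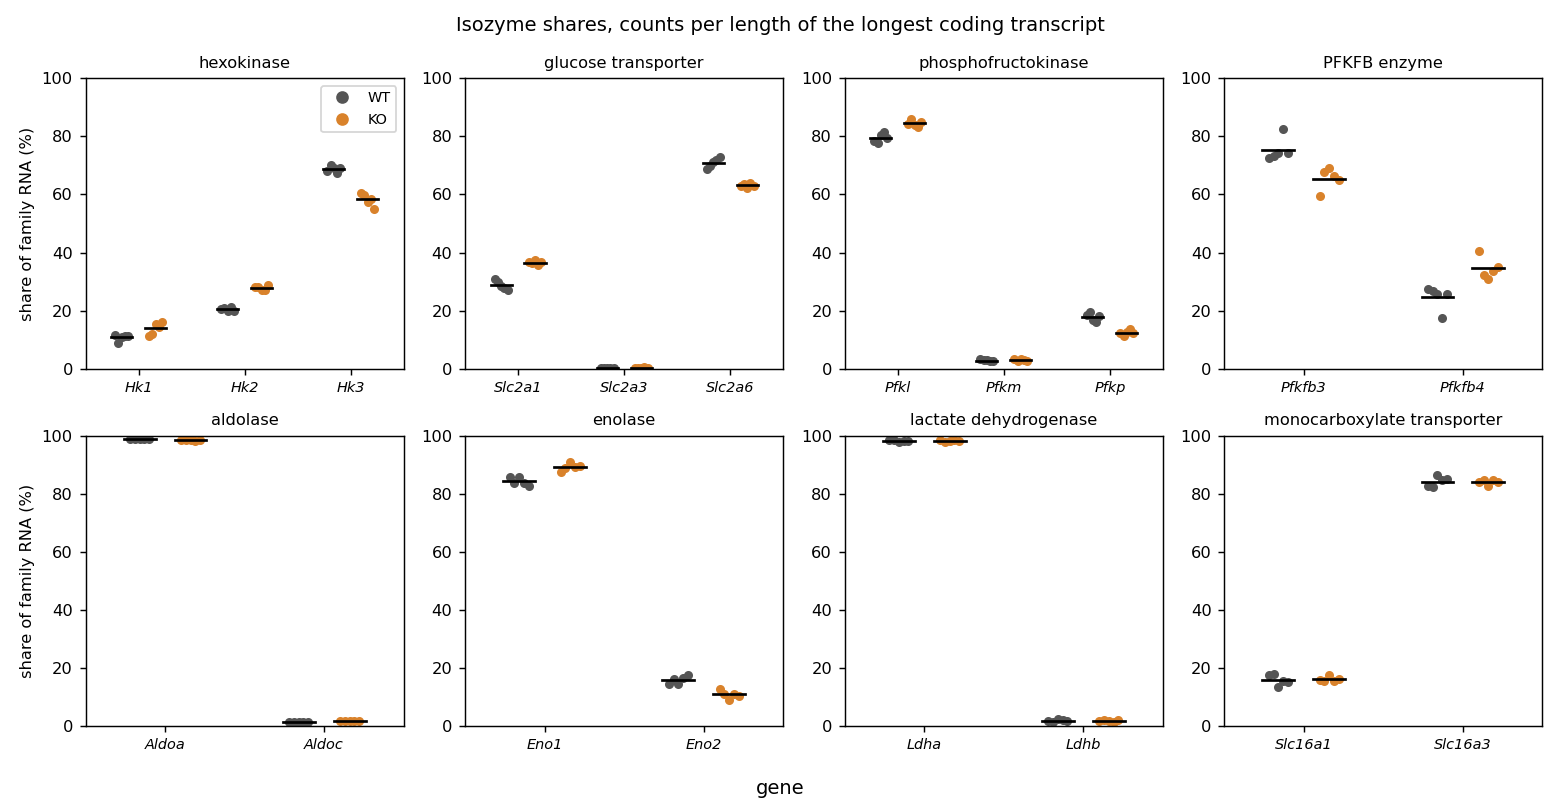
Share of each gene in the RNA of its family in each library, in percent of counts per length of the longest coding transcript, with WT in grey, KO in orange and a bar at each mean. Hk3 is lower and Hk2 higher in every KO library, and the shares of the lactate dehydrogenase and lactate transporter genes lie at the same height in both groups.

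How the libraries are scaled decides the balance of the calls. The values above use TMM factors, which hold most genes steady between libraries. With library totals alone, the median log2 difference of all genes moved from 0.01 to 0.12 and that of the 34 genes from 0.05 to 0.17, so 17 of the 34 were called higher and 4 lower, against 29.3% and 9.43% of all genes. All 19 genes called with TMM kept their sign. Hk3, Hk2, Slc2a6 and Eno2 were lower and all 11 genes called higher with TMM were higher under both scalings. Hk1, Pfkp, Pfkfb3 and Hif1a lost their call, and Slc2a1, Pfkfb4, Pgk1, Pkm, G6pdx and Pgd gained one. The 34 genes held 1.06 to 1.11% of all counts in the WT libraries and 1.16 to 1.23% in the KO libraries, and 1.36 to 1.41% and 1.51 to 1.62% with the copies.

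**Figure D5:**
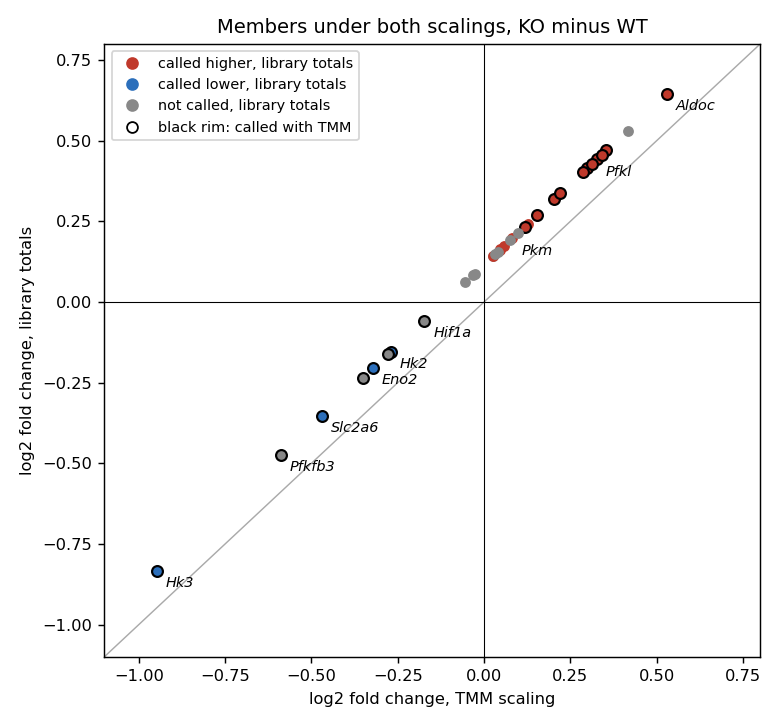
The log2 fold change of each gene with TMM scaling (horizontal) and with library totals (vertical), with the diagonal in grey, colour for the call with library totals and a black rim for genes called with TMM. All points lie above the diagonal, and Hif1a and Pfkfb3 are grey with a black rim.

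Genes around the pathway were taken from lists fixed by name. Over all genes tested 14.1% were higher and 15.0% lower, and of those with a mean of at least 10 CPM 36.7% were called. The lists were not matched to other genes for abundance. Of 13 other glycolysis isozymes and helpers tested, 5 were higher and 1 lower. Adpgk, an ADP-dependent glucokinase gene (0.25 ± 0.05), and Bsg and Emb, the chaperones of the lactate transporters (0.22 ± 0.07 and 0.36 ± 0.07), rose. Minpp1 fell (-0.17 ± 0.04). Without WT 5, KO 2 or KO 5, 3 of the 13 were higher. With library totals 8 were higher and 0 lower, the call of Minpp1 being lost (-0.05, adjusted p = 0.338). Without KO 1 and KO 3, 2 were lower. Of 25 genes that brake glycolysis or branch from it, 12 were higher and 3 lower. Phgdh, which opens the branch to serine, rose from 48.5 ± 3.46 to 68.5 ± 4.54 CPM (0.50 ± 0.06, adjusted p = 7.1e-05), and Pygl, which frees glucose units from glycogen, rose by 0.28 ± 0.05. Gpd2, the mitochondrial glycerol-3-phosphate dehydrogenase gene, fell from 163 ± 4.22 to 135 ± 3.63 CPM (-0.27 ± 0.03, adjusted p = 8.3e-05), and Gfpt2, of the hexosamine branch, by 0.60 ± 0.11 (adjusted p = 0.00123).

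Of 18 genes for the entry of pyruvate into mitochondria, 5 were higher and 0 lower; with an unadjusted p under 0.05, and with DESeq2 and limma-voom, 0 were lower as well. Pcx, the gene of pyruvate carboxylase, rose 1.76-fold from 20.8 ± 0.71 to 36.5 ± 2.05 CPM (0.81 ± 0.05, adjusted p = 5.0e-07), a larger rise than that of any of the 34 pathway genes. The pyruvate dehydrogenase subunit genes Pdhb and Pdha1 (0.14 ± 0.04 and 0.12 ± 0.03) and the outer membrane channel gene Vdac1 (0.12 ± 0.04) rose by little. Without KO 5, 3 genes of this list were higher, and Vdac1 lost its call (adjusted p = 0.0566), as it did without KO 2 (0.0589). Without KO 1 and KO 3, 1 gene of the list was lower. Of 12 neighbours of the pentose phosphate pathway 5 were higher and 0 lower, with 0 lower at an unadjusted p under 0.05 and by both other tools. They included Idh1, which makes NADPH in the cytosol, at 94.6 ± 17.4 and 160 ± 34.2 CPM (0.76 ± 0.15, adjusted p = 0.00250), Me1, which makes NADPH too (0.23 ± 0.07), and Prps2 and Prps1, which activate ribose for nucleotides (0.33 ± 0.05 and 0.19 ± 0.06). The count rested on few libraries: 3 were higher without WT 4, WT 5, KO 2 or KO 3 and 2 without both KO 1 and KO 3. Me1 lost its call when KO 1, KO 3, WT 3, WT 4 or WT 5 was left out (with an adjusted p of 0.0796 at most) and when KO 1 and KO 3 both were (0.15, adjusted p = 0.182), and Prps1 without KO 2 (0.0504), without KO 1 and KO 3 (0.0555) and with DESeq2 (0.0745). Of 30 HIF and MYC regulators and targets 7 were higher, 3 lower and 20 not called. Among the 4 called genes with the smallest p, the HIF target P4ha1, a collagen prolyl hydroxylase gene, fell (-0.33 ± 0.04, adjusted p = 1.0e-04). The HIF targets Bnip3l and Egln1 rose (0.33 ± 0.05 and 0.24 ± 0.04), as did the MYC antagonist gene Mxi1 (0.47 ± 0.08). In the table as a whole 14.1% of genes were higher and 15.0% lower. Beside P4ha1, the fibroblast genes Col1a1 and Col1a2 were higher in KO (245 and 318 CPM, 205 and 255 CPM) and Pdgfra lower (26.5 and 13.1 CPM), and their part in these results was not tested.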

How the data were processed

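RNA-seq gave gene expression in 10 libraries of stimulated mouse macrophages, 5 WT and 5 KO. The deposited table holds integer counts for each gene in each library and FPKM beside them, per the file headers. CASAVA 1.8, TopHat2 2.0.6 and the builds mm10 and GRCm39 are named without a role in the submitters' processing notes. The sources used here do not give the counter, annotation, strand setting or multi-mapping rule, so overlapping genes and near-identical copies cannot be separated. Of 52073 identifiers shared with GENCODE M21 (build GRCm38), 1430 had the same position, and none of these genes, so the table's positions are not printed and only sequences were taken from that reference. The WT columns match the labels by name, and those headed SI were taken as KO by elimination. For SI only counts were used, and 5 FPKM columns were not used.

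The deposited FPKM served only to recover a gene length, the same to within 3.8e-06 over the WT libraries for 8318 genes with at least 200 counts. That length exceeded the gene's own span for 1704 of 25411 genes and 5 of these 34 (Aldoa, Aldoc, Tpi1, Gapdh and Eno2). Levels and shares between genes therefore use the longest coding transcript in GENCODE M21.

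Counts were tested with edgeR 4.0.16 in R 4.3.3 (quasi-likelihood F test, TMM, filterByExpr with a minimum count of 10, KO minus WT). P-values were adjusted by Benjamini-Hochberg over 14436 genes, which held 99.87% of counts. The biological coefficient of variation was 12.8%. CPM are scaled by TMM. Floors of 3 counts cover counting error only. Copies are processed pseudogenes or retrotransposed genes whose transcript matched a gene of the set at 95% identity or more over at least 300 bases. Every gene of the set is named, and of each neighbouring list up to 4 called genes with the smallest p. The set and the lists were chosen with earlier results of these data known. Alternatives were DESeq2 1.42.0 (size factors, Wald test), library totals, 2 other filters, robust edgeR, limma-voom (limma 3.58.1), a replicate block and leaving out each library. Fits without KO 1 and KO 3, with copies summed and with the FPKM lengths were added after seeing the data. The procedure was tested on simulated data.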

Additional observations from a re-analysis of the deposited data

Results flagged for a closer look

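Each gene's 5 WT and 5 KO values were searched for a library set apart from the other 4, by a gap of more than 0.71 of the whole range. This gave 6 of 68 groups, where chance gives about 5%. Hk1 was low in WT 2, at 131.1 CPM against 173.5 for the next WT library, which put that library inside the KO range. Pfkfb3 was high in WT 4, at 155.3 CPM against 102.5, and its call was lost without that library. Pgk1 and Slc16a1 were high in KO 3, at 360.8 against 312.6 CPM and at 49.55 against 40.47 CPM. Eno2 was high in KO 1, at 81.24 against 67.99 CPM, and Ldha in WT 3, at 950.8 against 915.2 CPM. Slc16a1, Eno2 and Ldha kept their calls without each of these libraries.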

How the results depend on the processing

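The counts of calls held within 1.5 times of 11 higher and 8 lower in each alternative but 1: with library totals they were 17 and 4. All 19 called genes kept their sign in every alternative. Leaving out 1 library gave 11 to 12 higher and 6 to 8 lower, and 10 and 7 remained without KO 1 and KO 3. Besides the losses given above, Hk1 and Pfkfb3 were not called with no filter (adjusted p = 0.11 and 0.0635) or with robust edgeR (0.0611 and 0.0528), and with library totals (0.126 and 0.0539), as for Pfkp (0.0785); the cause was not tested. Pkm was called with no filter (0.0407) and with the stricter filter (0.0377). The replicate block, with the number in the column name, called 3780 genes in place of 4200 and the same 19 of the set (11 and 8). With the block 3 genes in place of 5 were higher among those for pyruvate entry and among the pentose phosphate neighbours, and Pdha1, Vdac1 and Me1 lost their calls (adjusted p = 0.0609, 0.055 and 0.0758). With library totals 11 were higher for pyruvate entry, and 11 higher and 1 lower among the HIF and MYC genes, in place of 5, 7 and 3. Libraries with the same number shared little deviation (correlations -0.104 to 0.126). The labels do not say whether the numbers pair the samples, and correlations over all genes cannot decide it.

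Sign changed for genes not called. Library totals gave 0.0844 for Gapdh, 0.0863 for Tkt and 0.0623 for Taldo1. Without KO 1 and KO 3 the values were -0.0335 for Gpi1, 0.0045 for Gapdh, -0.0012 for Pgk1 and 0.0654 for Tkt. Copies summed gave 0.1313 for Gapdh. Leaving out 1 library gave -0.0019 to 0.065 for Gpi1, -0.0575 to 0.0271 for Gapdh, -0.0207 to 0.0641 for Rpia and -0.077 to 0.0162 for Tkt. It also gave share differences (KO minus WT, in points) of -0.076 to 0.122 for Ldha, -0.122 to 0.076 for Ldhb, -0.402 to 0.686 for Slc16a1 and -0.686 to 0.402 for Slc16a3. The causes were not tested. Other shares kept their direction with raw counts and with the FPKM lengths, the Hk3 difference lying at -11.3 and -11.1 points against -10.4. In size, Aldoc differed by 0.644 and 0.677 points in these in place of 0.367, Pfkl by 3.12 and Pfkp by -3.35 with the FPKM lengths in place of 5.10 and -5.34, and Eno1 by 1.87 with copies summed in place of 4.91. Depth limits Slc2a3, at 15 to 50 counts per library.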
